A study of Homo sapiens with 6 samples.

Results

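The RNA-Seq profile of SAS-Fucci cells transfected with IGFBP3 siRNA #1 was compared between 72 h and 48 h of knockdown. The comparison used 4 of the 6 libraries of the series, 2 at each time. It covered 10853 of 59520 named gene models, those that reached an FPKM of 1 in 2 or more of those 4 libraries. A gene under this value in both libraries of 1 time passed through the other time alone, and the filter then fixed its direction. Genes named below of which this is true include IGFBP3, KRT14, KRT15 and CLIC3, through 72 h, and MMP3, NR2F1, ULBP1 and RNU6-2, through 48 h. SAS-Fucci is a human tongue squamous cell carcinoma line that carries a fluorescent reporter of the cell cycle, so every group shares this background. The 72 h cells and the 48 h cells received the same single siRNA, and 2 further libraries came from cells given non-targeted control siRNA (Cont). The medium of the 72 h cells was exchanged after 48 h, so a later time and fresh medium cannot be told apart in any difference reported here. The same control libraries serve both times, so a changed effect of the siRNA and a change with time in culture cannot be told apart. The harvest time of the control cells and the origin of the 2 libraries of a group, from 1 culture or from separate ones, are not given in the sources used here, and p-values then measure only the spread between these libraries, which may be technical.

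IGFBP-3 is a secreted protein that binds insulin-like growth factors and, in many cell types, also acts on its own. An siRNA lowers its target only for a time, since it is diluted and degraded as cells grow. A gene that responded early can return toward control, stay changed or pass to the other side, and genes can also begin to change late. The question of the comparison was which genes did each of these. Whether loss of the siRNA had a part in any such change was not tested.

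FPKM is the number of reads assigned to a gene, scaled by gene length and library total. Total assigned reads ran from 17430724 to 21579552 per library. All 11 keratinocyte markers examined passed the filter, with a summed FPKM of 812 to 828 at 72 h, 516 to 557 at 48 h and 906 to 1050 in control. None of the fibroblast, endothelial, immune or melanocyte markers did, and the summed FPKM of each of those lists was at most 1.79 in any library. The root mean square difference of log2(FPKM + 1) was 0.266 to 0.318 between a 72 h and a 48 h library, against 0.197 to 0.203 between the 2 libraries of a group. A fraction of cells that changed and a change in every cell cannot be told apart in such bulk libraries.

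Of the 10853 genes, 275 rose (2.53%) and 233 fell (2.15%) at 72 h relative to 48 h, by limma on log2(FPKM + 1) with an adjusted p under 0.05 (Benjamini-Hochberg). MMP1, which encodes a collagenase, had the largest fall, and WNT10A, which encodes a Wnt ligand, was among the genes with the smallest adjusted p (0.00574). The median size of a called change was 0.551 on the log2 scale, 28 genes rose and 20 fell by at least 1, and the median over all genes was -0.01. In all 508 called genes the 2 libraries of 72 h lay outside the range of those of 48 h, as they did in 59.3% of all tested genes. With 2 libraries on each side the smallest two-sided exact permutation p is 0.333, so such a test could make no call, and the calls here come from limma's model, whose variance is moderated across genes. The calls also depended on every library. By limma, 43 genes were called without 48 h replicate 2, 173 without 72 h replicate 1, 15 without 72 h replicate 2, 307 without either control library and 0 without 48 h replicate 1. In that last fit the lowest adjusted p was 0.0586 and 2145 genes had an unadjusted p under 0.05. The voom fit on reads recovered from the FPKM called 1164 genes with all libraries and 364 without 48 h replicate 1, 296 without 48 h replicate 2, 793 without 72 h replicate 1 and 222 without 72 h replicate 2. For reading the counts of the gene lists, 12.2% of all tested genes were higher and 13.6% lower at an unadjusted p under 0.05 by limma, and 5.52% were higher and 5.21% lower by voom.

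**Figure D1:**
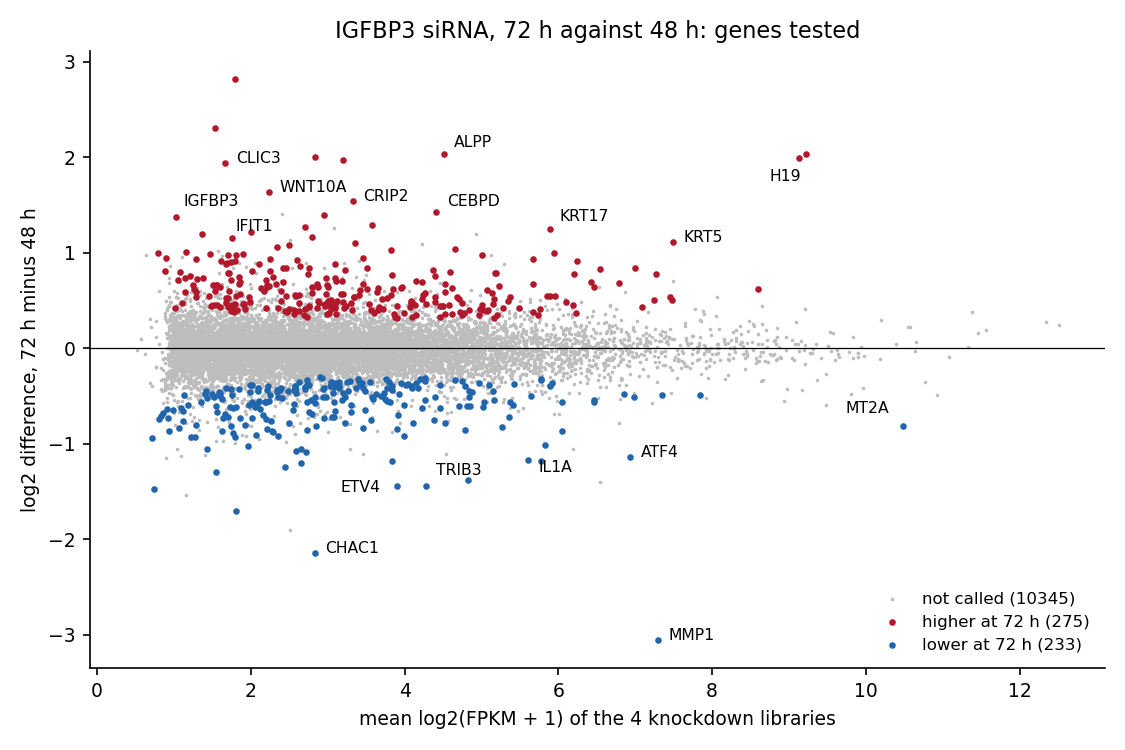
Each point is one of the 10853 genes tested, with the mean log2(FPKM + 1) of the 4 knockdown libraries on the x axis and the log2 difference, 72 h minus 48 h, on the y axis. The 275 genes called higher at 72 h are red and the 233 called lower are blue. MMP1 stands lowest, at -3.05, and ALPP and H19 lie near 2.

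The called genes were placed by their difference from control at each time. At 48 h, 946 genes were higher (8.72%) and 1727 lower (15.9%) than in control, and at 72 h 396 were higher (3.65%) and 959 lower (8.84%). These contrasts share libraries with the 72 h to 48 h contrast, so the classes are a description without a test. Of the 508 genes, 328 relaxed, that is, they differed from control at 48 h and at 72 h either did not or did so by less. Of these, 188 had been lower at 48 h and came up and 140 had been higher and came down. Their median absolute log2 difference from control was 0.14 at 72 h, against 0.614 at 48 h, and 291 were no longer called. Another 96 newly appeared, that is, they were called against control at 72 h and not at 48 h (52 higher and 44 lower than at 48 h). A further 11 reversed, being called on opposite sides of control at the 2 times, 9 went further in the same direction, and 64 were called against control at neither time.

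**Figure D2:**
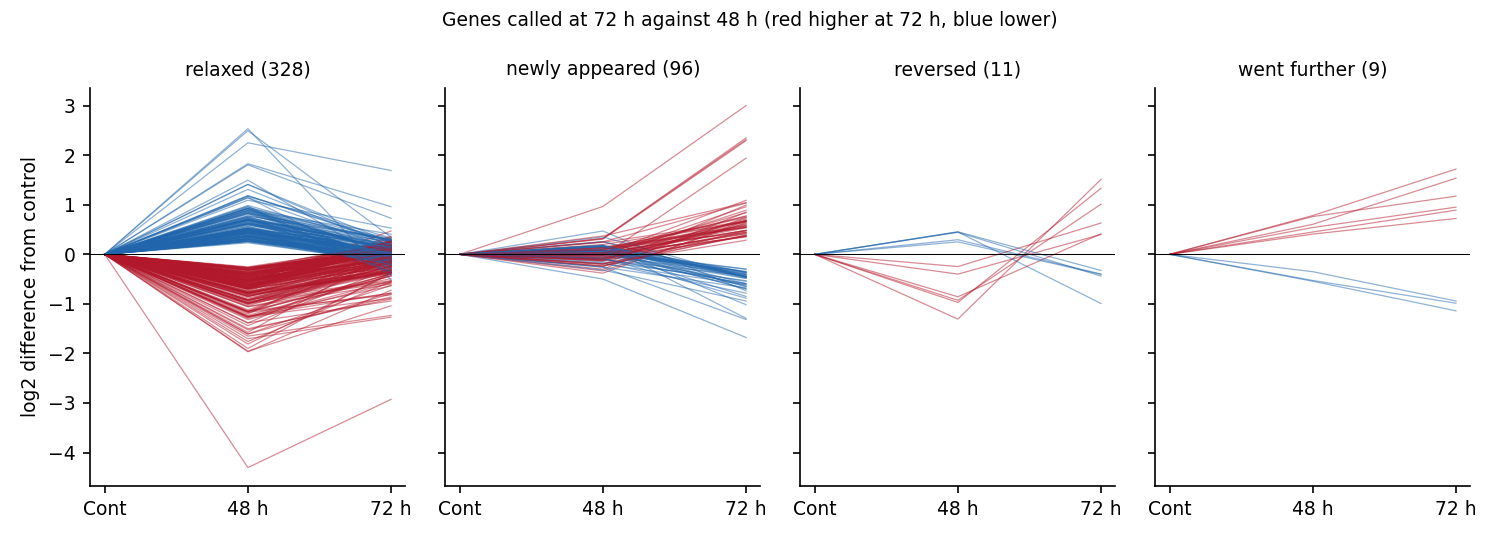
Each line is one gene called at 72 h against 48 h, with the fitted log2 difference from control on the y axis in control (0), at 48 h and at 72 h. Panels hold the 328 relaxed, 96 newly appeared, 11 reversed and 9 further-moving genes, red where the gene was higher at 72 h than at 48 h and blue where lower. The panels were defined by these values. The lowest line of the relaxed panel is IGFBP3.

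The target itself came up in part. IGFBP3 (ENSG00000146674, chromosome 7 of GRCh38, 45912245 to 45921874) had 1.52 and 3.25 FPKM at 72 h, against 0.261 and 0.258 FPKM at 48 h, and 24.7 and 23.1 FPKM in control. These values stand for 143 and 321 reads at 72 h and for 21 and 24 reads at 48 h. The rise was 1.38 on the log2(FPKM + 1) scale (adjusted p = 0.0304 from limma, standard error 0.22). On the linear scale the 72 h mean was 9.98% and the 48 h mean 1.09% of control, so at 72 h most of the knockdown remained. The 2 libraries of 72 h differed more from each other than those of 48 h, with replicate 2 the higher. Of the IGF axis, 13 genes were tested and 2 were called, both higher, IGFBP3 and IGFBP6, another IGF-binding protein, which had 10.9 and 17.99 FPKM at 72 h, against 6.68 and 5.36 FPKM at 48 h (log2 1.10, standard error 0.21, adjusted p = 0.0424 from limma). Both calls were lost without 48 h replicate 1 (adjusted p = 0.119 and 0.122) or 48 h replicate 2 (0.124 and 0.173), and 1 of them without either control library or without 72 h replicate 2.

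**Figure D3:**
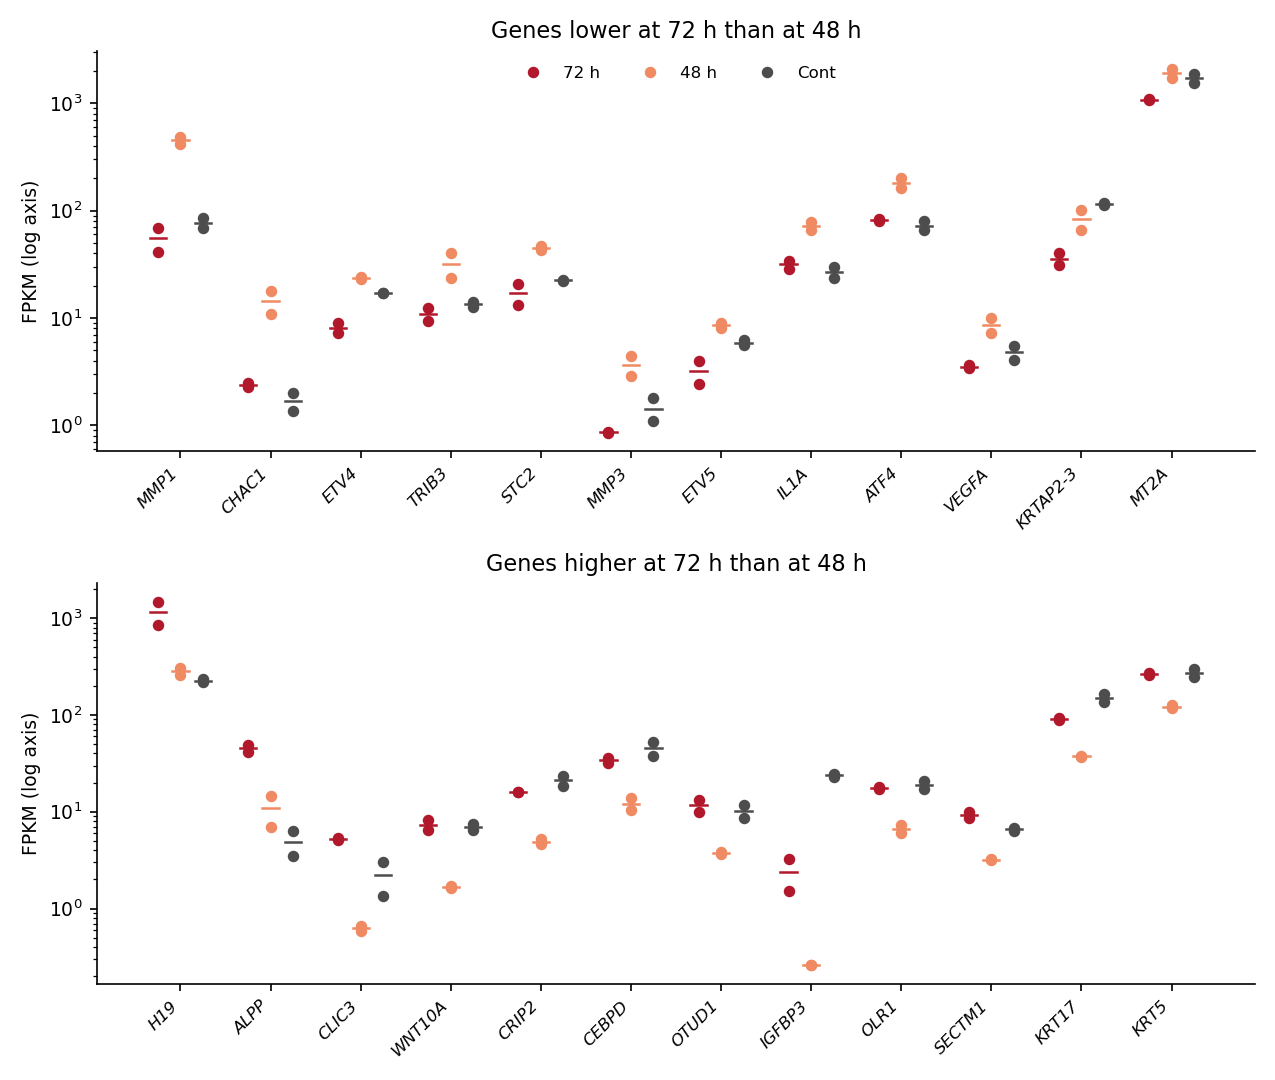
FPKM per library on a log axis for 12 genes lower and 12 genes higher at 72 h than at 48 h, with points for the 2 libraries of each group and a bar for their mean. From left to right in each gene stand 72 h, 48 h and Cont. In most of the lower genes the 72 h points lie near the control points and the 48 h points above both, and IGFBP3 is the gene whose 72 h points remain farthest below control.

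The list with the most called genes was that of the ATF4 response. ATF4 is a transcription factor whose translation rises when amino acids are short or unfolded proteins collect in the endoplasmic reticulum, and it switches on genes for making, importing and charging amino acids. It often binds C/EBP-ATF elements, of which the letters TGATGCAA are the core form. The promoters below, from the RefSeq table of GRCh38.p14 (a window of fixed length around each gene's start), are shown because they belong to called genes of this response and hold these letters, in capitals, on either strand.
CHAC1, chr15:40953237-40953294, plus strand: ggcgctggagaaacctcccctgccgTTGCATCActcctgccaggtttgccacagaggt
SLC1A5, chr19:46784879-46784936, minus strand: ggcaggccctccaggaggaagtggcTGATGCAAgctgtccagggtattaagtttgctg
AARS1, chr16:70289661-70289718, minus strand: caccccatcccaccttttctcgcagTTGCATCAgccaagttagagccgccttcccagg
MARS1, chr12:57488039-57488096, plus strand: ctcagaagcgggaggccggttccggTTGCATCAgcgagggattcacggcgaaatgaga
TARS1, chr5:33440942-33440999, plus strand: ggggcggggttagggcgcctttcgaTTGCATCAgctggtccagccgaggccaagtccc
The letters occur in 0.866% of the 35116 promoters of the table in 11 of the 48 tested genes of the ATF4, tRNA synthetase and amino acid transporter lists that have a promoter there, and in 7 of the 17 called ones among them (AARS1, BCAT1, CEBPG, CHAC1, MARS1, SLC1A5 and TARS1). A match is a description of the letters and not a binding site. Over all genes lower at 72 h no share is given, because fewer than 80% of them have a promoter in the table.

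Of 26 tested genes of the ATF4 list, 10 fell and 0 rose at 72 h relative to 48 h (20 and 0 at an unadjusted p under 0.05, 17 and 0 by voom), with a median log2 difference of -0.66. The list had 17 genes higher than control at 48 h and 2 at 72 h. ATF4 (ENSG00000128272) itself had 83.1 and 79.7 FPKM at 72 h, against 203 and 161 FPKM at 48 h, and 65.4 and 80.0 FPKM in control, a log2 difference of -1.14 ± 0.14 (standard error), at adjusted p = 0.0153 from limma. The 72 h libraries thus lay close to the upper control library and far below both 48 h libraries. A processed copy, ATF4P3, named after its values were seen, shares sequence with ATF4 and moved with it, and reads may be split between the 2 models. CHAC1, which breaks down glutathione, had 2.27 and 2.49 FPKM at 72 h, against 17.9 and 10.8 FPKM at 48 h, and 1.36 and 1.99 FPKM in control (log2 -2.15, standard error 0.22, adjusted p = 0.0123 from limma). TRIB3, a pseudokinase that restrains ATF4, had 12.4 and 9.31 FPKM at 72 h, against 40.5 and 23.5 FPKM at 48 h (log2 -1.44). Its 72 h libraries lay below both control libraries, at 14.2 and 12.7 FPKM. SESN2, a sensor of leucine that restrains mTORC1, had 2.48 and 2.92 FPKM at 72 h, against 5.44 and 5.13 FPKM at 48 h.

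PPP1R15A, which directs the phosphatase that ends the eIF2α signal, had 25.1 and 25.5 FPKM at 72 h, against 39.4 and 39.0 FPKM at 48 h, with log2 -0.61 and adjusted p = 0.0142 from limma. Enzymes among the called genes of the list were MTHFD2, BCAT1 and GPT2. MTHFD2, of mitochondrial folate metabolism, had 54.5 and 52.1 FPKM at 72 h, against 86.6 and 72.4 FPKM at 48 h, and remained higher than in control (36.4 and 36.8 FPKM). BCAT1, a branched-chain aminotransferase, fell by 0.67 and GPT2, an alanine aminotransferase, by 0.72 on the log2 scale. CEBPG, a partner of ATF4, fell by 0.47 and was the one called member that newly appeared, with 6.57 and 7.03 FPKM at 72 h, against 10.7 and 8.88 FPKM at 48 h and 9.31 and 9.17 FPKM in control. Of the serine enzymes, PSAT1 had 53.5 and 46.1 FPKM at 72 h, against 142 and 77.2 FPKM at 48 h (log2 -1.06, adjusted p = 0.0648 from limma), and PHGDH had 25.4 and 21.6 FPKM, against 33.0 and 18.5 FPKM. DDIT3, which encodes the stress factor CHOP, had a log2 difference of -0.38 (adjusted p = 0.114 from limma). The 2 libraries of 48 h were not alike in this list. Replicate 1 was above replicate 2 in 25 of 26 genes, against 53.7% of all tested genes, and DDIT4 had 121 and 48.6 FPKM in them, against 42.8 and 52.4 FPKM at 72 h. With this, both 72 h libraries still lay below both 48 h libraries in 22 of 26 genes (84.6%, against 31.0% of all genes). Of the 10 called genes, 5 were called without 48 h replicate 2, 5 without 72 h replicate 1, 1 without 72 h replicate 2, 5 without either control library and 0 without 48 h replicate 1 (adjusted p = 0.0586 to 0.151).

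Genes that charge tRNAs also fell in part. Of 20 cytosolic aminoacyl-tRNA synthetases, 5 fell and 0 rose (13 and 0 at an unadjusted p under 0.05, 8 and 0 by voom), with a median log2 difference of -0.32, and 19 of the 20 were below 0. At 48 h 10 of them were higher than in control, and at 72 h 0 by limma. YARS1, for tyrosine, had 16.9 and 16.05 FPKM at 72 h, against 33.8 and 25.1 FPKM at 48 h, and 13.7 and 14.8 FPKM in control (log2 -0.78, standard error 0.13, adjusted p = 0.0332 from limma). MARS1, for methionine, had 20.3 and 18.6 FPKM at 72 h, against 42.9 and 30.5 FPKM at 48 h. GARS1, for glycine, AARS1, for alanine, and TARS1, for threonine, fell by 0.70, 0.62 and 0.49 on the log2 scale, with 72 h means at 110%, 126% and 101% of control. NARS1, for asparagine, had log2 -0.50 (adjusted p = 0.0569 from limma).

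Amino acid transporters were mixed. Of 16 tested, 4 fell and 0 rose (9 and 1 at an unadjusted p under 0.05, 7 and 0 by voom). SLC1A5, a glutamine carrier, had 39.4 and 38.5 FPKM at 72 h, against 88.9 and 71.5 FPKM at 48 h, and 41.9 and 43.6 FPKM in control (log2 -1.02, standard error 0.11, adjusted p = 0.0130 from limma). SLC6A9, a glycine carrier, had 1.95 and 1.53 FPKM at 72 h, against 6.04 and 3.39 FPKM at 48 h. SLC7A1, for cationic amino acids, and SLC38A1, for glutamine, fell by 0.45 and 0.54. The 2 chains of the leucine carrier were not called between the times. SLC7A5 had 261 and 277 FPKM at 72 h, against 224 and 197 FPKM at 48 h, and SLC3A2 had 81.2 and 86.6 FPKM at 72 h, against 81.0 and 70.8 FPKM at 48 h, and both were called higher than control at 72 h (adjusted p = 0.0394 and 0.0395 from limma). The 9 called synthetases and transporters kept 4 calls without 48 h replicate 2, 1 without 72 h replicate 1, 2 without either control library and 0 without 48 h replicate 1 or 72 h replicate 2, where the adjusted p ran from 0.0586 to 0.216. Over the 3 lists together, 19 of 60 genes fell, 16 of them relaxed. Both 72 h libraries lay below both 48 h libraries in 48 of the 60 (80.0%, against 31.0% of all tested genes).

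**Figure D4:**
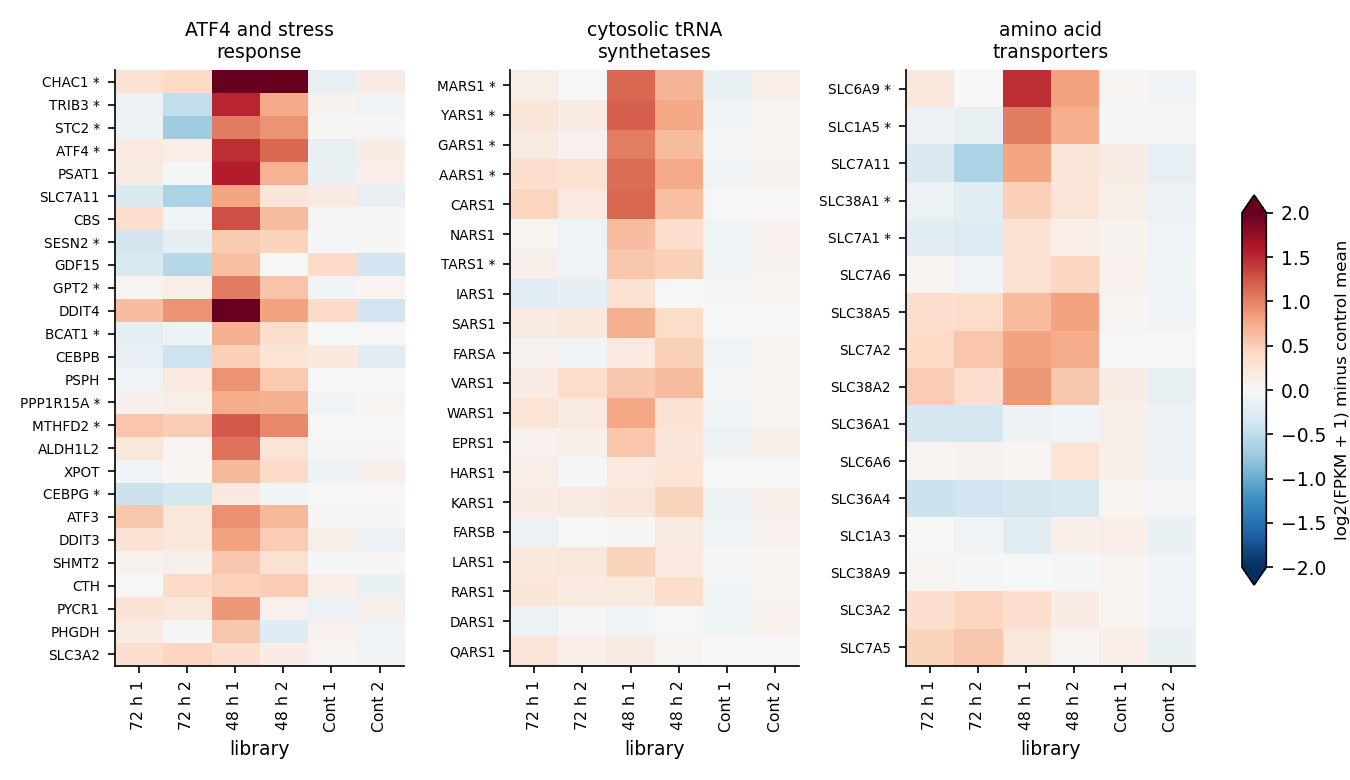
Heat maps of log2(FPKM + 1) minus the control mean for the tested genes of the ATF4, cytosolic tRNA synthetase and amino acid transporter lists, a row per gene and a column per library, in the order 72 h, 48 h and Cont. Rows are sorted by the difference of 72 h from 48 h, and an asterisk marks a called gene. The 2 columns of 48 h are the reddest in most rows, 48 h replicate 1 more than replicate 2.

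Among the relaxed genes with the largest falls were MMP1, MMP3, IL1A, STC2 and VEGFA, which encode secreted proteins. MMP1 (ENSG00000196611), the collagenase, had 68.9 and 41.4 FPKM at 72 h, against 421 and 483 FPKM at 48 h, and 69.1 and 85.7 FPKM in control. Both 72 h libraries thus lay below both control libraries after the largest fall of all tested genes, to 0.122 times the 48 h mean (log2 -3.05, standard error 0.23, adjusted p = 0.00635 from limma). MMP3, stromelysin, had 0.863 and 0.850 FPKM at 72 h, against 2.85 and 4.42 FPKM at 48 h (log2 -1.30). Of 11 tested metalloproteinases and inhibitors, 3 fell and 0 rose (4 and 3 at an unadjusted p under 0.05, 3 and 2 by voom), the other called gene being TIMP4, a metalloproteinase inhibitor, at log2 -0.49. The membrane collagenase MMP14 had 74.0 and 72.0 FPKM at 72 h, against 55.4 and 54.0 FPKM at 48 h (adjusted p = 0.0634 from limma). IL1A, which encodes interleukin 1α, had 34.3 and 28.9 FPKM at 72 h, against 78.8 and 65.8 FPKM at 48 h, and 29.6 and 23.6 FPKM in control. IL1RL1, the interleukin 33 receptor, named after its values were seen, had 3.58 and 2.71 FPKM at 72 h, against 7.16 and 8.26 FPKM at 48 h, and remained higher than control (1.54 and 1.43 FPKM). STC2, a secreted glycoprotein that is also an ATF4 target, had 20.6 and 13.3 FPKM at 72 h, against 47.0 and 42.7 FPKM at 48 h. VEGFA, the angiogenic factor, had 3.61 and 3.40 FPKM at 72 h, against 10.1 and 7.27 FPKM at 48 h. Noncoding AC107308.1 and CCR5AS fell by 1.71 and 1.24 on the log2 scale, the first of these from few reads (3 and 10 at 72 h, 38 and 24 at 48 h). Of the 9 genes called here, 7 were called without either control library, 1 without 48 h replicate 2, 4 without 72 h replicate 1, 2 without 72 h replicate 2 and 0 without 48 h replicate 1 (adjusted p = 0.0586 to 0.172).

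In the other direction, keratins of the basal layer came back up. Basal cells of squamous epithelium pair keratin 5 with keratin 14, and KRT17 marks activated or transformed epithelium. Of 12 tested keratins, 5 rose and 0 fell (7 and 1 at an unadjusted p under 0.05, 6 and 0 by voom), with a median log2 difference of 0.59, and all 5 had been lower than control at 48 h. KRT5 (ENSG00000186081) had 257 and 269 FPKM at 72 h, against 126 and 117 FPKM at 48 h, and 298 and 247 FPKM in control (log2 1.11, standard error 0.11, adjusted p = 0.0118 from limma). KRT17 had 87.8 and 91.99 FPKM at 72 h, against 37.1 and 37.7 FPKM at 48 h, and 164 and 135 FPKM in control (log2 1.24, standard error 0.10, adjusted p = 0.00886 from limma). Thus KRT5 was back in the control range, while KRT17 was still lower than control (log2 -0.72, adjusted p = 0.00884 from limma). KRT14 had 1.85 and 2.53 FPKM at 72 h, against 0.554 and 0.610 FPKM at 48 h. KRT15 had 1.99 and 2.80 FPKM, against 0.852 and 0.681 FPKM. Both genes were under an FPKM of 1 in both 48 h libraries. They passed the filter through the 72 h libraries alone and could only be higher there. KRT19, found in simple and basal epithelium, had 95.9 and 110 FPKM at 72 h, against 59.6 and 48.7 FPKM at 48 h. KRT6A had a log2 difference of 1.09 (adjusted p = 0.0617 from limma).

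The keratins of simple epithelium were not called between the times. KRT8 and KRT18 had log2 differences of 0.25 and 0.02, and KRT7 of -0.01, and KRT18 was higher than control at both times. Keratin genes share sequence, and reads may be split between them. Of 26 junction genes, 3 rose and 0 fell (10 and 0 at an unadjusted p under 0.05, 8 and 0 by voom). JUP, plakoglobin, had 93.3 and 96.9 FPKM at 72 h, against 59.6 and 51.1 FPKM at 48 h, and 124 and 89.4 FPKM in control. PKP1, a desmosome plaque protein, and CDH3, P-cadherin, rose by 0.41 and 0.40 on the log2 scale. The later squamous differentiation list had 0 of 12 genes called by limma (9 at an unadjusted p under 0.05, of which 8 were higher, and 5 by voom), with a median of 0.49. Without 48 h replicate 1 or 72 h replicate 2 none of the 8 keratin and junction calls of KRT5, KRT14, KRT15, KRT17, KRT19, PKP1, JUP and CDH3 was made by limma (adjusted p = 0.0609 to 0.235). Without 48 h replicate 2 there was 1, without 72 h replicate 1 there were 4, and without either control library 6.

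Among the largest rises of relaxed genes were WNT10A, CRIP2, CEBPD, OTUD1 and OLR1. WNT10A (ENSG00000135925) had 6.5 and 8.14 FPKM at 72 h, against 1.61 and 1.73 FPKM at 48 h, and 7.47 and 6.45 FPKM in control (log2 1.63, standard error 0.11, adjusted p = 0.00574 from limma). CRIP2, a LIM domain protein, had 16.1 FPKM in both 72 h libraries, against 5.17 and 4.65 FPKM at 48 h, and 23.6 and 18.7 FPKM in control. CEBPD, a C/EBP transcription factor, had 36.0 and 31.8 FPKM at 72 h, against 13.96 and 10.3 FPKM at 48 h, and 53.1 and 37.5 FPKM in control. Both genes lay between the 48 h and the control values. OTUD1, a deubiquitinase, and OLR1, a scavenger receptor for oxidized lipoprotein, rose by 1.39 and 1.29 on the log2 scale to 115% and 92.5% of control.

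ID proteins block basic helix-loop-helix factors and are induced by BMP signals. Of 15 genes of the BMP and ID list, 4 rose and 0 fell (5 and 1 at an unadjusted p under 0.05, 5 and 0 by voom). ID1 had 108 and 110 FPKM at 72 h, against 74.2 and 65.2 FPKM at 48 h, and 60.5 and 69.0 FPKM in control, so that its rise newly appeared at 72 h (log2 0.64, adjusted p = 0.0271 from limma). ID3 had 31.5 and 30.1 FPKM at 72 h, against 16.8 and 17.7 FPKM at 48 h, and 37.5 and 30.8 FPKM in control, so it relaxed. ID2 had 5.17 and 3.29 FPKM, against 1.67 and 2.06 FPKM at 48 h, and was not called (adjusted p = 0.064 from limma). BMP1, a procollagen protease in spite of its name, rose by 0.60. Of 12 Notch genes, 3 rose and 0 fell (5 and 0 at an unadjusted p under 0.05, 4 and 0 by voom). HES1, a target of Notch counted in both lists, had 18.4 and 17.0 FPKM at 72 h, against 9.15 and 10.9 FPKM at 48 h, and 25.7 and 21.6 FPKM in control. The ligand JAG2 rose by 0.56 on the log2 scale to 102% of control, and LFNG, which modifies Notch receptors, rose by 0.92 and stood at 42.4% of control. The 11 called genes of WNT10A, CRIP2, CEBPD, OTUD1, OLR1 and these 2 lists kept 10 calls without either control library, 5 without 72 h replicate 1, 3 without 48 h replicate 2, 2 without 72 h replicate 2 and 0 without 48 h replicate 1 (adjusted p = 0.0586 to 0.153).

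In the ERK feedback list 3 genes fell, and ETV4 and ETV5 were lower than control at 72 h. ETV4 and ETV5 are PEA3 transcription factors, and with the DUSP phosphatases and SPRY proteins their transcripts can follow ERK activity. The paper reports a lower level of active ERK in knockdown than in control cells at the earlier of these times. Whether the transcripts of this list followed ERK activity in these cells was not tested. Of 14 tested genes, 3 fell and 0 rose (11 and 0 at an unadjusted p under 0.05, 6 and 0 by voom), with a median log2 difference of -0.42. Both 72 h libraries lay below both 48 h libraries in 13 (92.9%, against 31.0% of all tested genes). The 2 libraries of 72 h were not alike in this list. Replicate 1 was above replicate 2 in 13 of 14 genes, against 5586 of all 10853. Against control, 4 of the 14 were higher and 1 lower at 48 h, and 0 were higher and 4 lower at 72 h. ETV4 (ENSG00000175832) had 8.92 and 7.26 FPKM at 72 h, against 24.3 and 23.0 FPKM at 48 h, and 17.0 FPKM in both control libraries. It was higher than control at 48 h and lower at 72 h, a log2 difference between the times of -1.44 (standard error 0.10, adjusted p = 0.00574 from limma). ETV5 had 3.97 and 2.44 FPKM at 72 h, against 9.03 and 8.08 FPKM at 48 h, and 6.24 and 5.55 FPKM in control, and was called against control at 72 h only. PHLDA1 fell by 0.46 on the log2 scale to 111% of control. DUSP6, DUSP4 and SPRY4 had log2 differences of -0.67, -0.90 and -0.95 and were not called (adjusted p = 0.0617, 0.0538 and 0.0806 from limma).

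Of the 11 genes that reversed, 10 are described, ETV4 among them. Of these, LIMCH1, MLKL, BAK1P1 and AC112715.1 are outside the 6 largest changes and were named after their values were seen. CLIC3, an intracellular chloride channel protein, had 5.05 and 5.40 FPKM at 72 h, against 0.586 and 0.659 FPKM at 48 h, and 3.03 and 1.36 FPKM in control (log2 1.94, standard error 0.22, adjusted p = 0.0146 from limma). SECTM1, a secreted and membrane protein of epithelium and myeloid cells, had 9.84 and 8.51 FPKM at 72 h, against 3.28 and 3.14 FPKM at 48 h, and 6.84 and 6.39 FPKM in control. LIMCH1, an activator of nonmuscle myosin, had 4.91 and 4.74 FPKM at 72 h, against 2.22 and 2.12 FPKM at 48 h, and 2.74 and 2.77 FPKM in control. In these 3 genes the control libraries lay between the 2 times. The adaptor SH2D2A had 1.56 and 1.44 FPKM at 72 h, against 3.61 FPKM in both 48 h libraries, and 2.35 and 2.42 FPKM in control. MLKL, which carries out necroptosis, had 3.42 and 3.20 FPKM at 72 h, against 6.31 and 6.49 FPKM at 48 h, and 4.24 and 4.56 FPKM in control. The pseudogene BAK1P1 fell by 0.69 and noncoding AC112715.1 rose by 0.80 on the log2 scale. BAK1P1 may share reads with its parent gene. The values of AC051649.2 and AC004556.4 rest on 12 and 12 and on 9 and 7 reads at 72 h, against 0 and 1 read each at 48 h and 2 to 4 reads in control, so no ratio is given for them and their fitted log2 differences are no measure of size. The 12 called genes ETV4, ETV5, PHLDA1 and the other described genes that reversed were all called without either control library, 11 without 72 h replicate 1, 6 without 48 h replicate 2, 2 without 72 h replicate 2 and 0 without 48 h replicate 1 (adjusted p = 0.0586 to 0.12).

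Among genes called against control at 72 h only, the noncoding RNA H19 had one of the highest levels. H19 is an imprinted, maternally expressed transcript next to IGF2, abundant in embryo and placenta and found again in many carcinomas. H19 (ENSG00000130600, chromosome 11, 1995176 to 2001470) had 841 and 1480 FPKM at 72 h, against 304 and 259 FPKM at 48 h, and 234 and 219 FPKM in control (log2 1.99, standard error 0.24, adjusted p = 0.0158 from limma). Replicate 2 of 72 h was the highest library, and the groups did not overlap. AC004556.2, on the scaffold KI270721.1, had values near those of H19 in every library (897 and 1603 FPKM at 72 h, against 313 and 274 FPKM at 48 h). Reads may be split between the 2 models. AC051649.3, within the span of H19 on the opposite strand, had 23 and 29 reads at 72 h, against 4 and 6 reads at 48 h and 4 and 6 reads in control. AC004556.1, on the same scaffold, had 18 and 22 reads, against 3 and 4 reads at 48 h. Whether the counting used strand is not given in the sources used here, so reads of H19 and of models within it cannot be told apart. These models are then not independent rises. Without 48 h replicate 1 the 4 adjusted p ran from 0.0586 to 0.081, without 48 h replicate 2 AC004556.1 alone was called, and without 72 h replicate 2 3 of the 4.

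ALPP, placental alkaline phosphatase, is an enzyme anchored to the cell surface. It was called against control at 72 h only, though both 48 h libraries already lay above both control libraries. It had 49.0 and 41.4 FPKM at 72 h, against 7.02 and 14.7 FPKM at 48 h, and 6.29 and 3.53 FPKM in control (log2 2.04, standard error 0.33, adjusted p = 0.0317 from limma). The listed length of ALPP, 5317 bases, exceeds the span of its coordinates, so its level per length is uncertain, while the comparison between libraries uses the same length. Among falls that newly appeared, KRTAP2-3, a hair keratin-associated protein, had 40.1 and 30.9 FPKM at 72 h, against 65.4 and 100.4 FPKM at 48 h, and 112 and 118 FPKM in control. Its 48 h libraries already lay below both control libraries. The metallothionein MT2A, named after its values were seen, had 1077 and 1088 FPKM at 72 h, against 2095 and 1728 FPKM at 48 h, and 1543 and 1884 FPKM in control (log2 -0.81, adjusted p = 0.0333 from limma). MT2P1, a processed copy of MT2A with which it may share reads, fell by 1.18. SPHK1, sphingosine kinase 1, also named after its values were seen, had 4.01 and 2.77 FPKM at 72 h, against 7.04 and 9.15 FPKM at 48 h, and HBEGF, an EGFR ligand and the gene of its list with the smallest p, had 16.5 and 13.7 FPKM, against 25.9 and 26.1 FPKM at 48 h. TNS3, tensin 3, a focal adhesion protein, named after its values were seen, had 14.1 and 14.4 FPKM at 72 h, against 7.14 and 6.75 FPKM at 48 h. The small nuclear RNA RNU6-2 was listed at 0 in both 72 h libraries, against 2 and 6 reads at 48 h and 4 and 2 reads in control, and no fold is given.

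A small group of interferon-induced genes rose. IFIT proteins bind viral RNA and block its translation, and their promoters carry interferon-stimulated response elements, of which GAAA, 2 bases of any kind and GAAA form the core. These letters, in capitals on either strand, are shown for called genes of the list in the RefSeq promoters of GRCh38.p14.
IFIT1, chr10:89392482-89392541, plus strand: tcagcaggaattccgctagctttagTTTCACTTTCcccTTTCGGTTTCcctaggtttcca
IFIT3, chr10:89332410-89332469, plus strand: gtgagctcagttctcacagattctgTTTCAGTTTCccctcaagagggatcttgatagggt
SAMD9, chr7:93118081-93118140, minus strand: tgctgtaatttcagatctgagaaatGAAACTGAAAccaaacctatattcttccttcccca
The letters occur in 3.57% of the 35116 promoters in 11 of 16 tested genes of the interferon list with a promoter in the table, and in all 4 of the called ones, which are these 3 and EPSTI1. Of 21 tested genes of the list, 5 rose and 0 fell (9 and 2 at an unadjusted p under 0.05, 5 and 0 by voom), with a median log2 difference of 0.23. IFIT1 had 6.83 and 7.62 FPKM at 72 h, against 3.23 and 2.59 FPKM at 48 h, and 3.03 and 2.70 FPKM in control (log2 1.08, standard error 0.11, adjusted p = 0.0119 from limma). IFIT2 had 5.70 and 6.56 FPKM at 72 h, against 3.46 and 2.57 FPKM at 48 h, and IFIT3 had 11.1 and 11.7 FPKM, against 7.22 and 5.06 FPKM at 48 h. All 3 were near control at 48 h and newly higher at 72 h. SAMD9, an antiviral protein, and EPSTI1 rose by 0.48 and 0.55 on the log2 scale. ISG15, a ubiquitin-like protein of the response, was not called, at log2 -0.10 (adjusted p = 0.5 from limma). In this list too 48 h replicate 1 was above replicate 2, in 20 of 21 genes. Of the 13 called genes of this and the preceding paragraph from ALPP to EPSTI1, 10 were called without either control library, 5 without 72 h replicate 1, 4 without 48 h replicate 2, 2 without 72 h replicate 2 and 0 without 48 h replicate 1 (adjusted p = 0.0586 to 0.137).

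Only 9 called genes moved further from control in the direction they already had. DIO2, which activates thyroid hormone, had 63.2 and 76.0 FPKM at 72 h, against 32.9 and 39.1 FPKM at 48 h, and 22.7 and 23.7 FPKM in control (log2 0.93, standard error 0.12, adjusted p = 0.0173 from limma). ADAMTS15, a secreted metalloprotease of proteoglycans, had 5.28 and 5.94 FPKM at 72 h, against 2.20 and 2.71 FPKM at 48 h, and 0.905 and 1.10 FPKM in control (log2 0.94, adjusted p = 0.0146 from limma). CD70, the ligand of the costimulatory receptor CD27, had 24.2 and 26.1 FPKM at 72 h, against 18.4 and 18.1 FPKM at 48 h, and 11.997 and 14.2 FPKM in control. In each of these the 3 groups were in order with no overlap. The others that rose were PAPSS2, for activated sulfate, MAGEB2, a cancer-testis antigen, and ITPK1, an inositol phosphate kinase, by 0.41, 0.41 and 0.32 on the log2 scale, all 3 named after their values were seen. The nuclear receptor NR2F1 had 0.899 and 0.785 FPKM at 72 h, against 1.63 and 1.95 FPKM at 48 h, and 3.42 and 2.73 FPKM in control. UBASH3B, a phosphatase of tyrosine kinase signaling, had 2.25 and 2.14 FPKM at 72 h, against 3.81 and 3.82 FPKM at 48 h, and LTBP2, a matrix protein of the TGF-β-binding family, fell by 0.46. Of these 9 calls, 7 were made without either control library, 3 without 72 h replicate 1, 1 without 48 h replicate 2 and 0 without 48 h replicate 1 or 72 h replicate 2 (adjusted p = 0.0791 to 0.237).

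Of the 64 genes that differed between the times and from control at neither, those with the largest change after IGFBP6 were SYT8, VSIR, ULBP1, NKX1-2 and ITGA2. ITGA2, the collagen-binding integrin α2, had 33.9 and 22.8 FPKM at 72 h, against 50.3 and 49.9 FPKM at 48 h (log2 -0.83, standard error 0.17, adjusted p = 0.0453 from limma). VSIR, an immune checkpoint ligand, had 8.97 and 12.4 FPKM at 72 h, against 5.35 and 5.195 FPKM at 48 h. ULBP1, a ligand of the NKG2D receptor of natural killer cells, had 0.423 and 0.404 FPKM at 72 h, against 1.94 and 1.25 FPKM at 48 h. SYT8, a synaptotagmin, rose by 0.91 and NKX1-2, a homeobox factor, fell by 0.84 on the log2 scale. None of these 5 was called by limma without either 48 h library or without 72 h replicate 2 (adjusted p = 0.0545 to 0.171), 2 were without 72 h replicate 1 and 3 without either control library.

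Few cell cycle genes were called between the times, though 50 of 60 tested genes of G2 and mitosis had a log2 difference above 0. Of 58 genes of G1/S and DNA replication, 1 fell and 0 rose (5 and 9 at an unadjusted p under 0.05, 1 and 3 by voom), with a median log2 difference of 0.01, while 10 of them at 72 h and 18 at 48 h were lower than in control. The one called was RFC4, a clamp loader subunit, at 21.2 and 21.6 FPKM at 72 h, against 28.2 and 26.4 FPKM at 48 h (log2 -0.34, adjusted p = 0.0497 from limma). Of 60 genes of G2 and mitosis, 2 rose and 0 fell (20 and 3 at an unadjusted p under 0.05, 10 and 0 by voom), with a median of 0.14. They were the condensin subunit NCAPG, with 29.9 and 28.6 FPKM at 72 h, against 22.2 and 23.3 FPKM at 48 h, and the spindle motor KIF11. In the G2 and mitosis list, 2 genes at 72 h and 14 at 48 h were lower than in control. The 83 ribosomal protein genes had 0 calls by limma (6 at an unadjusted p under 0.05, 2 by voom), the 21 cholesterol synthesis genes 0 (1 and 0) and the 24 NRF2 targets 0 (2 and 1).

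The endoplasmic reticulum chaperones leaned toward higher values at 72 h, with a log2 difference above 0 in 22 genes and below 0 in 9. Of 31 tested, 2 rose and 1 fell (9 and 1 at an unadjusted p under 0.05, 5 and 1 by voom), with a median of 0.12. Both 72 h libraries lay above both 48 h libraries in 19 (61.3%, against 28.2% of all tested genes) and below them in 3. DNAJC3, a cochaperone and inhibitor of the eIF2α kinase PERK, had 9.76 and 10.2 FPKM at 72 h, against 7.12 and 7.08 FPKM at 48 h, and 12.3 and 11.9 FPKM in control. MANF rose by 0.41 and the oxidase ERO1A fell by 0.32 on the log2 scale, both at adjusted p = 0.0499 from limma. Among 34 genes of hypoxia and glycolysis, 4 rose and 1 fell (8 and 4 at an unadjusted p under 0.05, 6 and 1 by voom). The peptide hormone gene ADM had 23.3 and 20.1 FPKM at 72 h, against 12.5 and 13.3 FPKM at 48 h, and 21.4 and 21.1 FPKM in control. BNIP3L, PFKFB3 and KDM3A also rose, by 0.51, 0.58 and 0.40, and VEGFA was the one that fell. Of the 11 genes of the cell cycle, chaperone and hypoxia lists called here, 4 were called without either control library, 2 without 72 h replicate 1 and 0 without either 48 h library or 72 h replicate 2 (adjusted p = 0.0503 to 0.235).

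**Figure D5:**
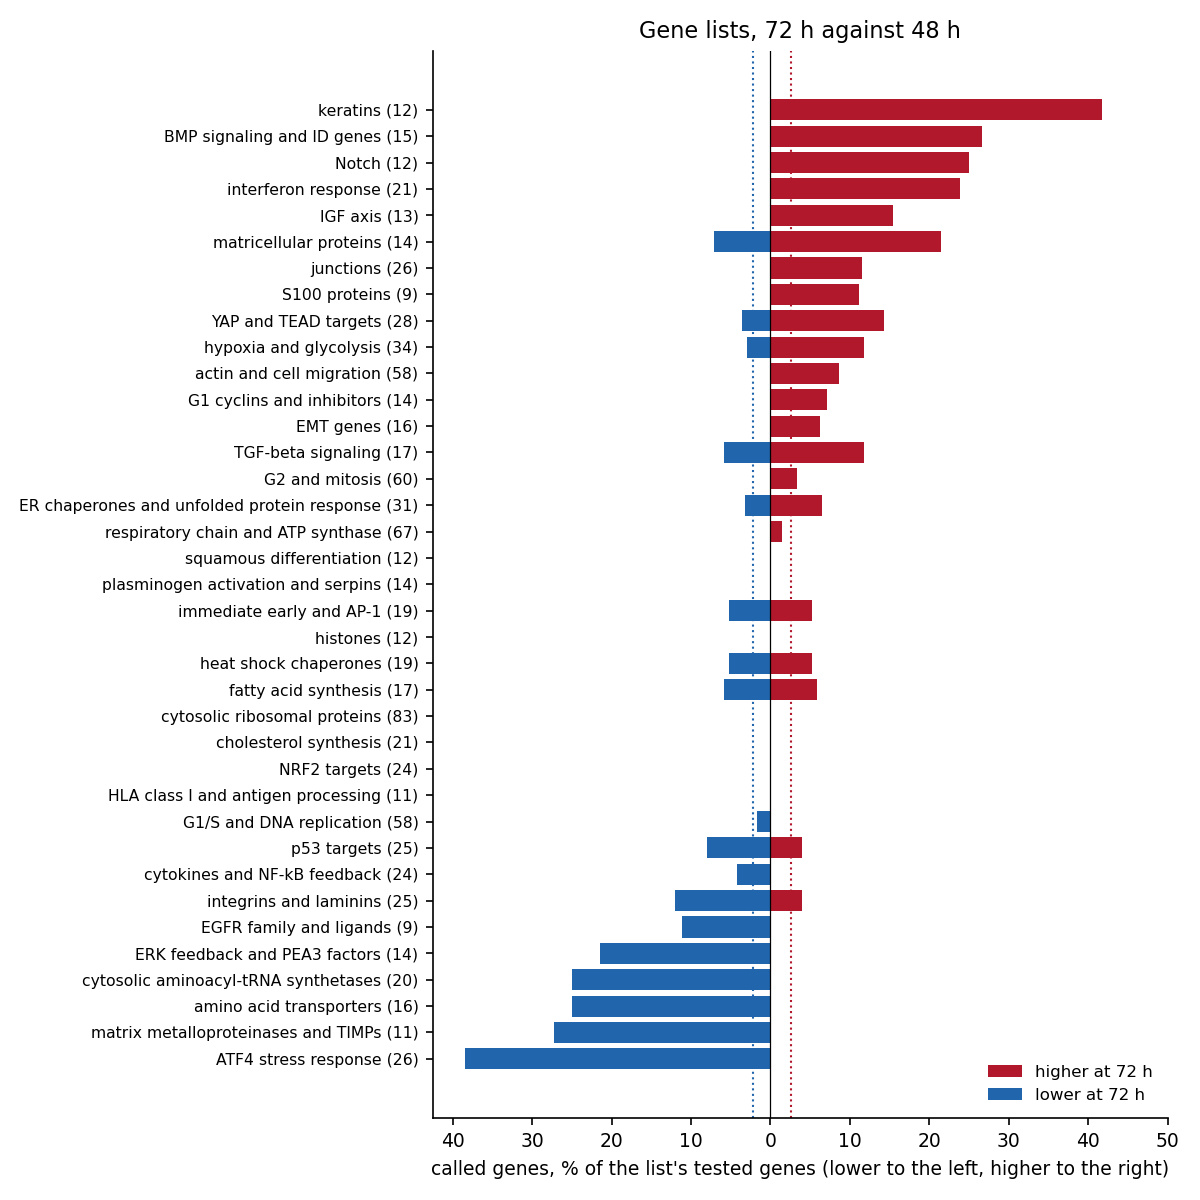
Share of each list's tested genes (number in parentheses) called lower (blue, to the left) or higher (red, to the right) at 72 h than at 48 h. Dotted lines mark the shares over all tested genes, 2.15% lower and 2.53% higher. The keratins lie at one end and the ATF4 list at the other, and lists without a bar had 0 calls.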

How the data were processed

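RNA of 6 libraries, 2 per group, was measured by RNA-Seq. The libraries were sequenced on a DNBSEQ instrument and aligned by the authors with HISAT2 2.0.1. GRCh38, DESeq2 and HTSeq 0.6.1 appear in the submitters' processing notes without a stated role, and the annotation release and strand setting are not given in the sources used here. The authors deposited FPKM for 66351 gene models, of which 6831 carry no name and entered only an alternative fit. Values above 0 with a rounding error under 0.1 read, 21783 to 22964 per library, were divided by the step of 1 read. At least 99.88% of these came out whole, within 0.1 read, and gave the assigned reads per library.

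Genes were kept where 2 or more of the 4 knockdown libraries reached an FPKM of 1. A pseudocount of 1 was added, and limma 3.58.1 in R 4.3.3 fitted 1 mean per group over all 6 libraries, with a trend of the spread on level and 3 residual degrees of freedom before moderation. Fold changes on this log2(FPKM + 1) scale understate the change of genes with low values, while percentages of control and per-library values are plain FPKM. Groups came from the sample labels. Called means a Benjamini-Hochberg adjusted p under 0.05 over the 10853 genes. The same steps were also run on simulated data, with a spread of 0.12 on the log2 scale for every gene, independent between genes. That run cannot measure how far the calls here can be relied on. In these libraries the spread can differ between genes and be shared by the genes of a list.

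Named genes were IGFBP3, the 15 largest rises and falls whose libraries did not overlap, the 6 largest changes of each class, up to 6 genes of each list with the smallest p, and list members named for their role. Not every gene of the rule is described, 1 gene that reversed is not reported here, and genes outside it are said to be so. The members and lists were chosen with earlier results of these data known. Alternatives were another pseudocount, filter, scaling, set of libraries or block, a required log2 change of 1, no trend, and voom on the recovered reads. Promoters and genome positions of sequences are from RefSeq.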

Additional observations from a re-analysis of the deposited data

Results flagged for a closer look

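The 10 genes below were called on opposite sides of the same control libraries at 72 h and 48 h. Their log2 differences, 72 h minus 48 h, were 2.82 for AC051649.2, 2.30 for AC004556.4, 1.94 for CLIC3, -1.44 for ETV4, 1.27 for SECTM1, -0.88 for SH2D2A, 0.88 for LIMCH1, 0.80 for AC112715.1, -0.78 for MLKL and -0.69 for BAK1P1, each called by limma. The first and second of these rest on at most 12 reads in any library, with 0 and 1 read at 48 h. Their fitted values depend on the pseudocount and are no measure of the size of a change. CLIC3 was under an FPKM of 1 in both 48 h libraries and passed the filter through the 72 h libraries alone. Of 1066 gene models without a name that passed the same filter, left out of the comparisons of the report, 3 were called higher and 4 lower at 72 h than at 48 h when fitted with the named ones.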

How the results depend on the processing

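Called genes at 72 h against 48 h (275 higher and 233 lower) numbered 18 and 11 with no filter on low values, 174 and 128 with the compared groups alone, 28 and 20 with a log2 change of at least 1 required, 599 and 565 with voom on recovered reads and 97 and 59 with unnamed gene models included. The last of these and the fit with no filter tested more genes. The cause of the other changes was not tested. In the same order, the relaxed class (328) held 17, 171, 21, 719 and 105 genes. The newly appeared class (96) held 12, 57, 12, 189 and 36. The reversed class (11) held 0 with no filter, 7 with an FPKM of at least 5, 5 with the compared groups alone and 1 with a log2 change of at least 1. The class that went further (9) held 0 with no filter, 0 with a log2 change of at least 1, 26 with voom and 3 with unnamed models, and the unplaced class (64) held 0, 14, 214 and 4.

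The 48 h against control counts were 608 higher with no filter, 1026 lower with an FPKM of at least 5, and 50 higher and 130 lower with a log2 change of at least 1. The 72 h against control counts were 156 higher and 430 lower with no filter, 526 lower with an FPKM of at least 5, 607 lower with quantile normalization, and 38 higher and 55 lower with a log2 change of at least 1.

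The genes that fell in the ATF4 list (10) numbered 1 with no filter, 5 with the compared groups alone, 4 with a log2 change of at least 1, 17 with voom and 5 with unnamed models. In the same order, the synthetases (5) numbered 0, 0, 0, 8 and 0, and the transporters (4) 0, 1, 2, 7 and 1, with 2 under no trend. The ERK feedback list (3) had 1 with no filter, 5 with an FPKM of at least 5 and 6 with voom. With no filter, 1 keratin and 0 interferon, 0 BMP and 0 Notch genes rose, and with a log2 change of at least 1 the counts were 3, 1, 0 and 0. Unnamed models gave 2 interferon and 1 Notch gene, and a pseudocount of 0.1 gave 5 Notch genes.

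The groups share only replicate numbers 1 and 2, which no label ties to a culture or day. With the replicate number as a block, 180 genes were higher and 143 lower, the relaxed class held 204 and the unplaced class 34, and 2 synthetases fell. The correlation of replicate differences was -0.121 between 72 h and 48 h, so a crossed pairing was added after the data were seen. It called 475 genes, 2 transporters and 6 genes of the ERK feedback list.

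Leaving out each library in turn gave ranges by limma and, for the knockdown libraries, by voom. Genes higher at 72 h than at 48 h ran from 0 to 179 (131 to 441 by voom) and genes lower from 0 to 129 (84 to 352). The 48 h against control counts ran from 299 to 795 higher (579 to 1118) and 688 to 1502 lower (1010 to 1926), and those of 72 h against control from 101 to 277 higher (281 to 490) and 275 to 699 lower (647 to 1135). The relaxed class held 0 to 162 (157 to 498), the newly appeared 0 to 49 (38 to 118), the reversed 0 to 10 (6 to 21), those that went further 0 to 10 (4 to 20) and the unplaced 0 to 104 (10 to 136). Falls numbered 0 to 6 in the ATF4 list (8 to 19), 0 to 2 in the synthetases (2 to 10), 0 to 2 in the transporters (1 to 6) and 0 to 3 in the ERK feedback list (3 to 8). Rises numbered 0 to 5 in the keratins (3 to 6), 0 to 4 in the interferon list (2 to 6), 0 to 4 in the BMP list (4 to 5) and 0 to 2 in the Notch list (1 to 4). By voom, 138 genes were higher without 72 h replicate 2, the relaxed class held 186 without 48 h replicate 2, and the unplaced class 29 without 48 h replicate 1. Where a group is left with 1 library, that library is assumed to vary like the other groups, and the voom fits without a library were added after the data were seen.

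At 2 libraries a group, with 1 siRNA, small changes are not detectable, and genes under an FPKM of 1 were not tested. No gene named here as called changed its direction between 72 h and 48 h under any alternative run. This does not hold for genes that were not called. The difference of PHGDH, one of these, changed sign without 48 h replicate 1.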
